A study of Mus musculus with 3 samples.

Results

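Caveolae are small flask-shaped pits of the plasma membrane, and the genes that build them were followed here together with Dmpk in muscle of tumour-bearing mice. Caveolins are the membrane-embedded proteins of the pit, and cavins are the cytoplasmic proteins that coat it. In muscle fibres caveolae buffer stretch of the sarcolemma and take part in the formation of T-tubules, whereas in endothelial cells and adipocytes, where they abound, they serve transport and signalling. Dmpk encodes a serine/threonine kinase of striated muscle. It is not a coat protein of caveolae, and its human counterpart carries the expanded CTG repeat of myotonic dystrophy. The genes were taken by symbol as the 3 caveolins (Cav1, Cav2, Cav3), the 4 cavins (Cavin1, Cavin2, Cavin3, Cavin4) and Dmpk, and all 8 were found among the 25206 genes of the deposited table.

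The tibialis anterior of male CD2F1 mice (strain CD2 in the labels) was injected at 10 weeks of age with 1e+11 vector genomes of AAV9 in 20 µL. The 3 groups were C26 AAV9-FoxP1-shRNA, C26 AAV9-scrambled-shRNA (called C26 control below) and Sham AAV9-scrambled-shRNA (Sham). After 2 weeks the C26 mice were inoculated in both flanks with 500000 cells each of the cachexia-inducing mouse colon tumour C26, and Sham mice received PBS. Muscles were taken 26 days after inoculation. The scrambled-shRNA vector carried GFP and the FoxP1-shRNA vector mCherry, so that marker protein and shRNA cannot be told apart, and Sham muscle with FoxP1-shRNA was not analysed here. Each group was 1 array of RNA pooled from 3 mice, which leaves no replicate. No value below therefore carries an SD or a test, and no difference can be set against the spread between mice. Values are log2 expression values made by the authors with Robust Multiarray Average (RMA), and differences between arrays were read at a fixed size of 2-fold. The level of one gene is not compared with that of another, since each has its own probes. In whole muscle, fewer cells of a type and less RNA per cell cannot be told apart.

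Foxp1 itself had log2 values of 6.52 in C26 FoxP1-shRNA, 7.31 in C26 control and 6.41 in Sham, so that the library with the shRNA lay near Sham. The 10 muscle fibre markers had log2 values between 10.2 and 12.4 on every array, near the top of the range of all genes. The array medians were 3.99, 4.05 and 4.06 in the same group order, and each of the 8 genes lay above the median of every array.

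Cav3 and Dmpk were more than 3-fold below Sham in C26 control and close to Sham with FoxP1-shRNA, whereas Cavin4, also a gene of the fibre, differed little between the arrays. Cav3 encodes caveolin-3, the caveolin of muscle fibres, whose human gene is mutated in rippling muscle disease and a form of limb girdle muscular dystrophy. Its log2 value was 6.15 in C26 FoxP1-shRNA, 4.56 in C26 control and 6.27 in Sham. The C26 control array was the low one, and the remaining 2 arrays were near each other. The value of 4.56 was not far above the median of that array, 4.05, where the size of a fold is less sure. Cav3 in C26 control was 3.28-fold below Sham, a log2 difference of -1.71, and 1.28% of all genes had a lower difference. With FoxP1-shRNA it was 3.01-fold above C26 control, a log2 difference of 1.59, and 99.6% of all genes had a lower difference. In C26 FoxP1-shRNA it stood at 0.918 times Sham, so that 92.8% of its C26 difference, on the log2 scale, was absent with FoxP1-shRNA.

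Dmpk had log2 values of 8.69 in C26 FoxP1-shRNA, 6.85 in C26 control and 8.75 in Sham. As with Cav3, the C26 control array alone was low. Dmpk in C26 control was 3.73-fold below Sham (log2 difference -1.90), and 1.01% of all genes had a lower difference. With FoxP1-shRNA it was 3.58-fold above C26 control (log2 difference 1.84), and 99.8% of all genes had a lower difference. In C26 FoxP1-shRNA it stood at 0.960 times Sham, and 96.9% of its C26 log2 difference was absent. The 2 genes lay close together in all comparisons: the log2 difference of Dmpk minus that of Cav3 was -0.19 for C26 control minus Sham and 0.25 for C26 FoxP1-shRNA minus C26 control. For both genes the 2 comparisons use the same C26 control array, and a low value on it alone would give a low difference against Sham and a high one for FoxP1-shRNA.

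Cavin4, also named Murc, encodes the cavin of striated muscle. Its log2 value was 8.42 in C26 FoxP1-shRNA, 8.32 in C26 control and 8.65 in Sham. The 3 arrays lay close together. Cavin4 in C26 control was 1.26-fold below Sham, and with FoxP1-shRNA it was 1.07-fold above C26 control. Its log2 difference of -0.33 between C26 control and Sham was that of the median muscle fibre marker, also -0.33. Those markers ran from -1.71 to 0.017 and lie near the top of the array range, where a difference can be understated. A difference between 2 genes within the arrays is free of any shift common to an array. Taken so, the C26 control minus Sham difference of Cav3 minus that of Cavin4 was -1.38, and that of Dmpk minus that of Cavin4 was -1.57. For C26 FoxP1-shRNA minus C26 control these contrasts were 1.49 and 1.74, and for C26 FoxP1-shRNA minus Sham they were 0.10 and 0.17.

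**Figure D1:**
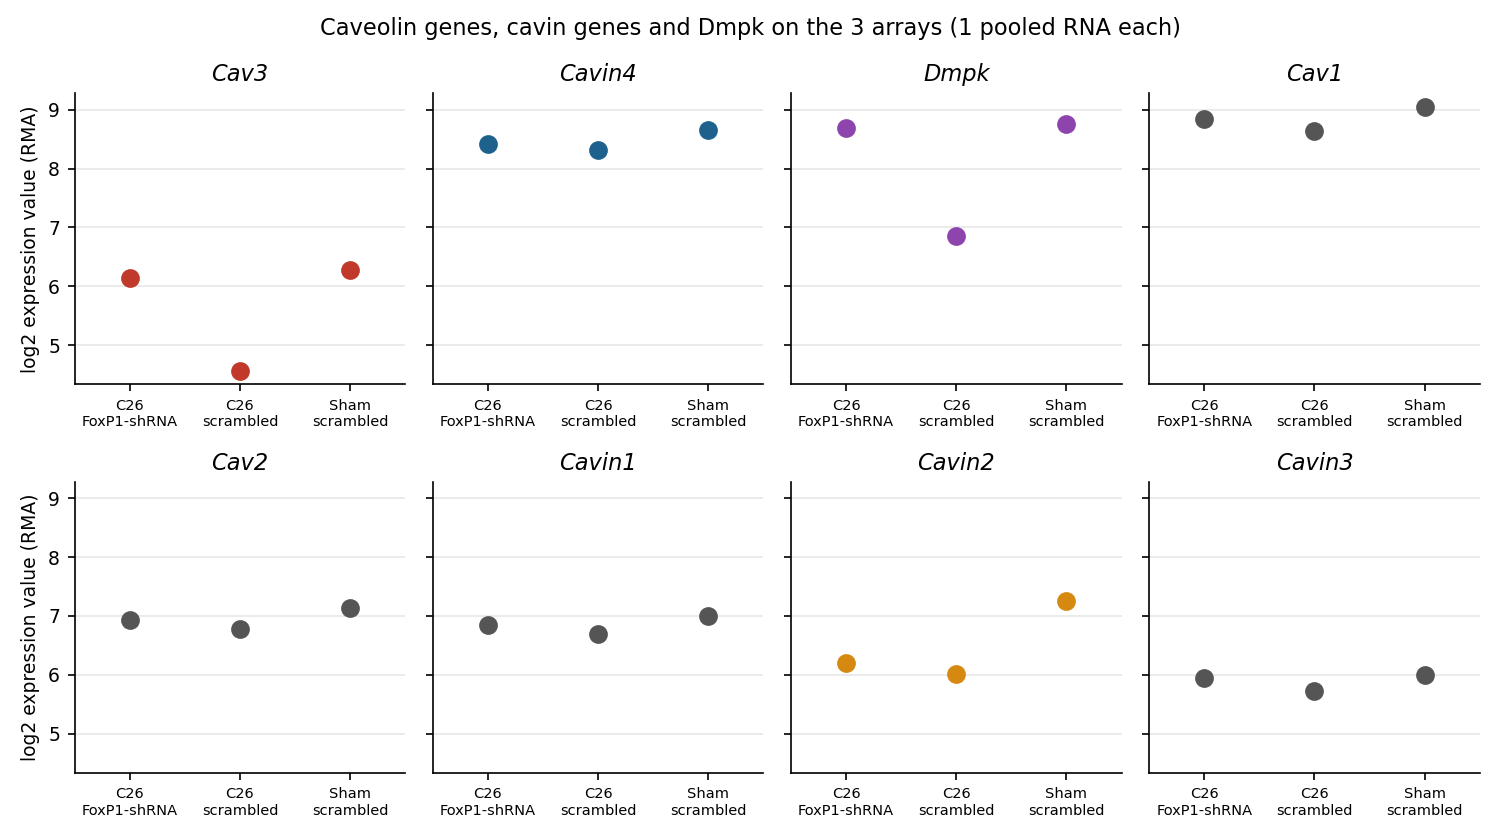
Log2 expression value (RMA, vertical axis) of each gene on the 3 arrays, from left to right C26 FoxP1-shRNA, C26 scrambled-shRNA (C26 control) and Sham; each point is 1 array of RNA pooled from 3 mice, and heights are to be read within a gene only. Cav3 and Dmpk were low on the C26 control array alone (4.56 and 6.85), Cavin2 on both C26 arrays (6.21 and 6.01, against 7.26 in Sham), and the other 5 genes were within 1.33-fold of Sham on both C26 arrays.

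The sequences before the start sites of the 3 fibre genes are shown because Cav3 and Dmpk differed alike while Cavin4 did not. They are the 250 bases before a RefSeq start site in GRCm38.p6, 5′ to 3′ on the strand of the gene, and capitals mark E-boxes (CANNTG, N being any base), the letters bound by myogenic regulators such as MyoD. The windows are chr6:112459255-112459504 for Cav3, chr7:19083608-19083857 for Dmpk and chr4:48663264-48663513 for Cavin4, all on the plus strand.
Cav3: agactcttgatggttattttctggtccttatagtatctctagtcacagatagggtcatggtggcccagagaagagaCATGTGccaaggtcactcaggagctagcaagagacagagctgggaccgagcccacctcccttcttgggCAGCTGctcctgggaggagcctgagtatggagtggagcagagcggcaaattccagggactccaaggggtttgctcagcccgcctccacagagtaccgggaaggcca
Dmpk: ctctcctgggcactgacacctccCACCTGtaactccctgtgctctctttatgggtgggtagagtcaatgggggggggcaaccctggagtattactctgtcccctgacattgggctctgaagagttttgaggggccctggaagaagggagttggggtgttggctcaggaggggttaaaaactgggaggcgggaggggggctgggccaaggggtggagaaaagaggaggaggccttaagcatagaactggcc
Cavin4: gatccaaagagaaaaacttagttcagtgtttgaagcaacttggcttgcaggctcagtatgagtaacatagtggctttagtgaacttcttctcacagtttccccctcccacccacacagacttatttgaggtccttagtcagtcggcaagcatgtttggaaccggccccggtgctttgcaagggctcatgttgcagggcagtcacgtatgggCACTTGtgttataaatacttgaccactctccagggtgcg

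Counted from the start site, the E-boxes begin at -174 and -106 in Cav3, at -227 in Dmpk and at -39 in Cavin4. The start that the annotation gives for the Dmpk gene lies inside its window. An E-box is common, and 66.2% of all 32851 promoter windows of this length hold one. Of the 7 genes with a window, 5 had an E-box (Cav1, Cav2, Cav3, Cavin4 and Dmpk) and Cavin1 and Cavin2 had none. The MEF2 site, searched on both strands as its consensus, was in none of the windows of the 7 genes, against 2.92% of all windows. The forkhead core TGTTTAC, searched on both strands, was likewise in none (3.17% of all windows). The core TATTTAT was in Cavin4 alone, on the minus strand and beginning at -29 (5.17% of all windows). The letters searched thus did not set Cav3 and Dmpk apart from the other windows, and they say nothing of the factors that act there.

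Cavin2 was the one gene of the 8 that was at least 2-fold below Sham on both C26 arrays. It encodes a cavin that binds phosphatidylserine and shapes the membrane, also named Sdpr, which is prominent in endothelium. Its log2 value was 6.21 in C26 FoxP1-shRNA, 6.01 in C26 control and 7.26 in Sham. Both C26 arrays were low. Cavin2 in C26 control was 2.39-fold below Sham (log2 difference -1.25), and 2.68% of all genes had a lower difference. With FoxP1-shRNA it was 1.15-fold above C26 control and 2.08-fold below Sham, and 15.9% of its C26 log2 difference was absent. The C26 FoxP1-shRNA minus Sham difference (-1.05) was past 2-fold as deposited and with quantile or cyclic loess normalization, but was -0.99 with each array centred on its median and -0.82 with the arrays centred on reference genes. Within the arrays, the C26 control minus Sham difference of Cavin2 minus that of Cavin1 was -0.95, and minus that of Cavin3 it was -0.98. For C26 FoxP1-shRNA minus Sham these contrasts were -0.92 and -1.003, whereas for C26 FoxP1-shRNA minus C26 control they were 0.034 and -0.022. Cavin2 thus differed from its relatives in both comparisons with Sham and by almost nothing between the C26 arrays.

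The caveolins and cavins shared by many cell types were slightly below Sham in C26 control, with C26 FoxP1-shRNA between. Cav1, which encodes the principal caveolin of endothelial cells, adipocytes and fibroblasts, had log2 values of 8.84 in C26 FoxP1-shRNA, 8.64 in C26 control and 9.05 in Sham. Cav2, its neighbour on chromosome 6 and its partner in mixed oligomers, had 6.94 in C26 FoxP1-shRNA, 6.79 in C26 control and 7.14 in Sham. These 2 genes had the same order and similar steps, 1.33-fold and 1.28-fold below Sham in C26 control. Cavin1, also named Ptrf, without which caveolae do not form, had log2 values of 6.85 in C26 FoxP1-shRNA, 6.69 in C26 control and 6.99 in Sham. Cavin3, a cavin that binds protein kinase C delta, had 5.95 in C26 FoxP1-shRNA, 5.73 in C26 control and 6.0 in Sham. With Cavin4 included, these 5 genes were 1.21-fold to 1.33-fold below Sham in C26 control and, with FoxP1-shRNA, 1.07-fold to 1.17-fold above C26 control. The share of the C26 log2 difference that was absent with FoxP1-shRNA was 31.5% for Cavin4, 43.0% for Cav2, 48.7% for Cav1, 54.4% for Cavin1 and 80.9% for Cavin3. These shares divide small differences of single arrays and moved with the scaling, from 14.3% with cyclic loess normalization to 103% with centring on reference genes for Cavin4, and from 76.0% with quantile normalization to 254% with that centring for Cavin3. Over the same scalings those of Cav3 lay between 92.2% and 107%, those of Dmpk between 93.4% and 110.0% and those of Cavin2 between 13.1% and 25.1%. Whether the steps of the 5 genes exceed the spread between pools cannot be said. Cav1 and Cav3, the caveolins of different cells, differed within the arrays by -1.31 in C26 control minus Sham (Cav3 minus Cav1) and by 1.39 in C26 FoxP1-shRNA minus C26 control.

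Of the 8 genes, 3 (Cav3, Cavin2 and Dmpk) had C26 control values at or below 0.5 times Sham and none at or above 2 times, against 4.33% of all genes at or below 0.5 times, 3.34% at or above 2 times and 7.68% in either direction. All 8 genes lie in the brighter part of the arrays, and among genes above the median of at least 1 of the 2 arrays compared the share in either direction was larger, at 13.3%. In C26 FoxP1-shRNA, 2 of the 8 (Cav3 and Dmpk) were at or above 2 times C26 control and none was at or below 0.5 times it, against 1.44% of all genes at or above 2 times, 1.06% at or below 0.5 times and 2.5% in either direction (4.17% among the brighter genes). In C26 FoxP1-shRNA against Sham, 1 of the 8 (Cavin2) was at or below 0.5 times and none at or above 2 times, against 2.17% of all genes at or below 0.5 times, 1.61% at or above 2 times and 3.78% in either direction (6.24% among the brighter genes). Cav3 and Dmpk are also among the 0.988% of all genes that were at least 2-fold below Sham in C26 control and, with FoxP1-shRNA, at least 2-fold above C26 control. The study lists such genes, and both were known to be in that set when the 8 genes were chosen, so that their counts are a description. Of the 1092 genes with C26 control values of 0.5 times Sham or less, 22.8% were at or above 2 times C26 control in C26 FoxP1-shRNA, and Cavin2 was not one of them.

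**Figure D2:**
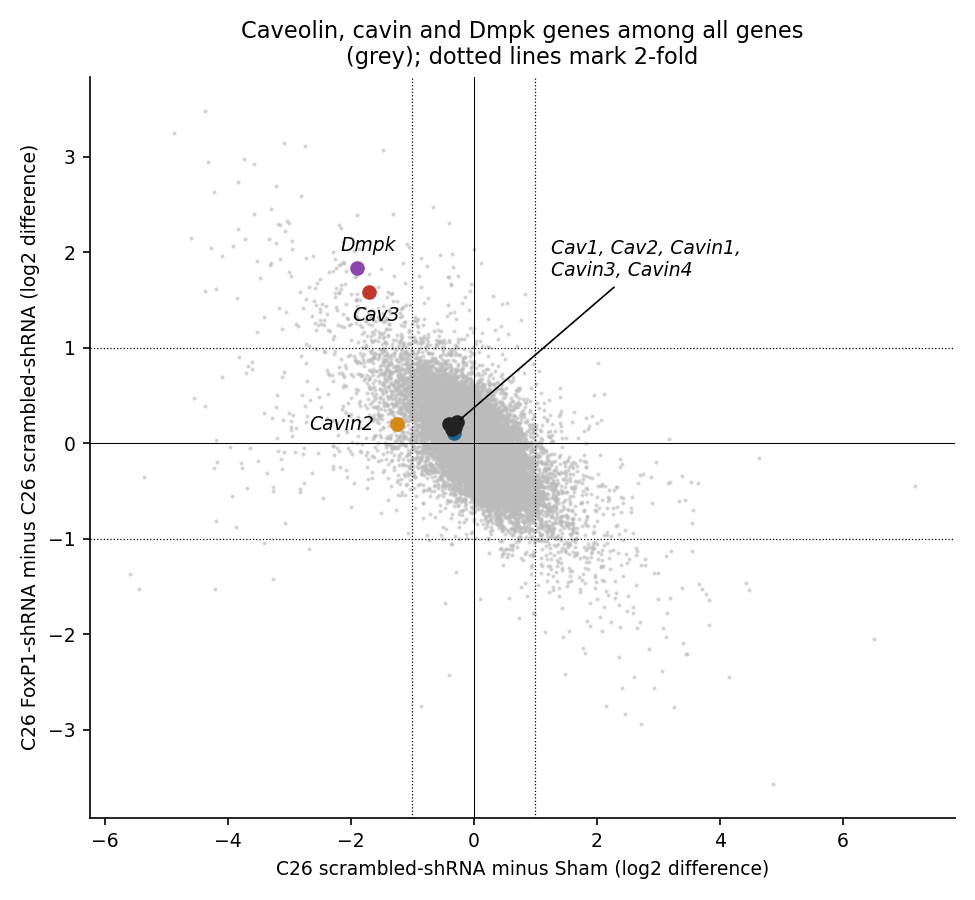
Log2 difference of C26 scrambled-shRNA (C26 control) minus Sham (horizontal axis) and of C26 FoxP1-shRNA minus C26 scrambled-shRNA (vertical axis), with 1 grey point for each of 25206 genes, the 8 genes coloured or black, and dotted lines at 2-fold. Both axes share the C26 control array; Dmpk (-1.90, 1.84) and Cav3 (-1.71, 1.59) lay past both 2-fold lines at the upper left, Cavin2 (-1.25, 0.20) left of the 2-fold line, and the other 5 genes near the centre.

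All 8 genes had the same order, lowest in C26 control, between in C26 FoxP1-shRNA and highest in Sham, an order held by 20% of all genes. By any size, 46% of all genes were lower in C26 control than in Sham, 44.8% were higher in C26 FoxP1-shRNA than in C26 control and 50.5% were lower in C26 FoxP1-shRNA than in Sham. The median log2 difference of the 8 genes was -0.38 in C26 control minus Sham, beside 0.032 for all genes. It was 0.20 in C26 FoxP1-shRNA minus C26 control, beside -0.034 for all genes, and -0.17 in C26 FoxP1-shRNA minus Sham, beside -0.0041. Without Cav3 and Dmpk the medians of the remaining 6 genes were -0.34, 0.18 and -0.21 in the same order of comparisons.

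The direction of C26 control against Sham and of C26 FoxP1-shRNA against C26 control was kept for all 8 genes under each of 4 other scalings. Cav3 ran from -1.71 to -1.56 and Dmpk from -1.92 to -1.74 in C26 control minus Sham, and Cavin2 from -1.27 to -1.10. In C26 FoxP1-shRNA minus C26 control, Cav3 ran from 1.55 to 1.67 and Dmpk from 1.79 to 1.92. The scalings moved the median of all genes by at most 0.16 and 0.076 in these 2 comparisons. Shifts of that size could hardly have taken Cav3 or Dmpk across 2-fold. The direction of C26 FoxP1-shRNA against Sham was not kept. With each array centred on its median, Cavin3 and Dmpk turned to 0.016 and 0.0096, and with the arrays centred on 9 reference genes, 7 of the 8 genes were above Sham and Cavin2 alone stayed below. Centring on reference genes moved the median of all genes by 0.16 in C26 control minus Sham and by 0.23 in C26 FoxP1-shRNA minus Sham. The genes at or below 0.5 times and at or above 2 times were 1092 and 843 in C26 control against Sham as deposited, and 818 and 1255 with that centring. In C26 FoxP1-shRNA against Sham they were 548 and 405 as deposited, and 327 and 784 with that centring. Apart from Cavin2, the direction of the 8 genes between C26 FoxP1-shRNA and Sham therefore depends on the scaling. For Cav1, Cav2, Cav3, Cavin1 and Cavin4 the centring on reference genes alone turned it. B2m, 1 of the reference genes, had log2 differences of -1.08 in C26 control minus Sham and -1.41 in C26 FoxP1-shRNA minus Sham. Over the 9 reference genes the latter difference had a mean of -0.23 and a median of -0.078.

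**Figure D3:**
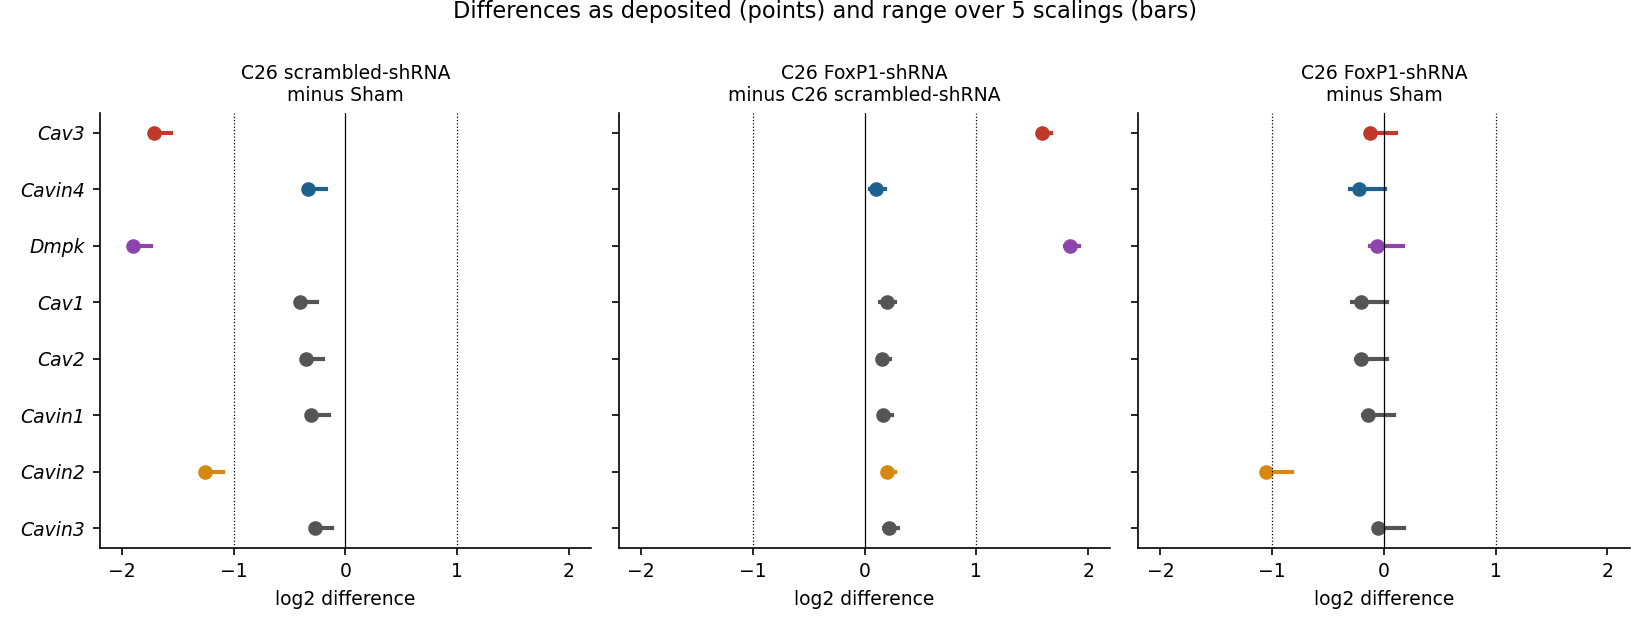
Log2 difference (horizontal axes) of each gene in the 3 comparisons named above the panels; points are the deposited values, bars span the deposited values and 4 other scalings, and dotted lines mark 2-fold. Cav3 and Dmpk stayed past 2-fold in C26 control minus Sham and in C26 FoxP1-shRNA minus C26 control and spanned 0 in C26 FoxP1-shRNA minus Sham, where Cavin2 ran from -1.09 to -0.82.

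The 8 genes were all lower in C26 control than in Sham, whereas each list of genes that act with the caveolins held both directions. Of 9 partners at the caveola neck and coat, none had a C26 control value at or below 0.5 times Sham, and Ehd3 alone was at or above 2 times. Their median log2 difference was -0.041, beside -0.38 for the 8 genes. Ehd2, the ATPase that sits at the caveola neck, had log2 values of 6.92 in C26 FoxP1-shRNA, 6.95 in C26 control and 7.77 in Sham, and was low on both C26 arrays as Cavin2 was. Pacsin3, the pacsin of muscle, had 8.32 in C26 FoxP1-shRNA, 7.53 in C26 control and 7.99 in Sham, and was low in C26 control as Cav3 was, with steps below 2-fold. Ehd3, an EHD protein of endosomal traffic, had 6.22 in C26 FoxP1-shRNA, 7.54 in C26 control and 5.32 in Sham, opposite to Cav3. Of 5 genes of T-tubule formation and junctions, 4 were lower in C26 control than in Sham, with a median log2 difference of -0.59. At or below 0.5 times Sham were 2, namely Cacna1s, the pore of the voltage sensor, and Jph2, which ties the T-tubule to the sarcoplasmic reticulum. Jph2 had log2 values of 7.10 in C26 FoxP1-shRNA, 5.85 in C26 control and 8.43 in Sham, so that it stood further from Sham with FoxP1-shRNA than Cav3 did. Of 9 genes of membrane repair, in which caveolin-3 also takes part, Anxa5 alone was past 2-fold, at 2.09-fold below Sham in C26 control. The 3 genes of flotillins and stomatin (Flot1, Flot2 and Stom) were all higher in C26 FoxP1-shRNA than in C26 control. Their median log2 difference there was 0.62, beside 0.20 for the 8 genes. None of Flot1, Flot2 and Stom, and none of the 6 measured binding and signalling partners of caveolin-3, was past 2-fold in C26 control against Sham or in C26 FoxP1-shRNA against C26 control.

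Around Dmpk, Hspb2, the small heat shock protein that binds the kinase, was the one of 6 partners and neighbouring genes past 2-fold in either of these comparisons. Its log2 value was 6.52 in C26 FoxP1-shRNA, 5.27 in C26 control and 6.65 in Sham, with the C26 control array alone low as for Dmpk. Dmwd and Six5, which flank Dmpk, did not share its values. Dmwd had 6.67 in C26 FoxP1-shRNA, 6.85 in C26 control and 5.92 in Sham, and Six5 had 4.74 in C26 FoxP1-shRNA, 4.40 in C26 control and 4.24 in Sham. Likewise Ssu2 and Oxtr, which flank Cav3 and were picked by position, were within 1.13-fold between any 2 arrays, but both lay below the median of every array, where a difference could hardly be seen. Genes that flank the other caveolins and cavins went both ways. Named here by size are those with the largest differences from Sham in C26 control. Smpd1 beside Cavin3 and Met beside Cav1 had the order of Cav3 in larger steps than the gene they flank. Smpd1 was 2.19-fold below Sham in C26 control and 2.08-fold above C26 control with FoxP1-shRNA. Met was 1.89-fold below Sham and 1.78-fold above C26 control. Stat3 beside Cavin1 was 2.61-fold above Sham in C26 control and 0.903 times C26 control with FoxP1-shRNA. None of the 5 measured kinases of the DMPK family and none of 6 RNA-binding factors of myotonic dystrophy was past 2-fold. Mbnl1, the splicing factor sequestered by expanded repeats in that disease, had log2 values of 10.41 in C26 FoxP1-shRNA, 9.99 in C26 control and 10.46 in Sham, the order of Dmpk in smaller steps.

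The genes most like Cav3 and Dmpk were sought among 11647 genes by the distance between pairs of log2 differences (C26 control minus Sham and C26 FoxP1-shRNA minus C26 control). Nearest to Cav3 were Slc25a35, a mitochondrial carrier, Popdc2, a Popeye domain protein of striated muscle, and Phtf2, at distances of 0.076, 0.17 and 0.18. Nearest to Dmpk were Casq2, the cardiac and slow-fibre calsequestrin, Gpr155 and Sbk2, at 0.078, 0.091 and 0.18. Cav3 and Dmpk themselves were 0.31 apart. The likeness rests on 3 arrays and ranks genes without a test.

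Markers of the cells that carry caveolae were set beside these values. Summed linear levels add genes with different probes, so they are read between arrays within a list only. They are not amounts of a cell type. A summed linear level is carried mostly by the genes of a list with the highest values. Among these were Dcn of the fibroblast markers and Cd68 of the macrophage and neutrophil markers, with log2 values of 10.37 and 8.60 in C26 control. Of 16 endothelial markers, 10 were higher in C26 control than in Sham, against 0 of the 8 genes and 13441 of all 25206 genes. The summed linear level of the endothelial markers was 2489 in C26 FoxP1-shRNA, 2585 in C26 control and 2329 in Sham. Plvap, which forms the diaphragm of endothelial caveolae, had log2 values of 7.20 in C26 FoxP1-shRNA, 7.32 in C26 control and 5.54 in Sham, the opposite of Cavin2. Kdr, the main VEGF receptor of endothelium, was low on both C26 arrays as Cavin2 was, at 2.67-fold below Sham in C26 FoxP1-shRNA and 2.05-fold below Sham in C26 control. The endothelial markers thus went both ways, and their part in the values of Cavin2 was not tested. Of 8 fibroblast markers, C26 control had 5 at or below 0.5 times Sham, and their summed linear level was 2161 in C26 FoxP1-shRNA, 1825 in C26 control and 3698 in Sham. By any size, 2 of these markers were higher in C26 control than in Sham. Col1a1 differed most, with log2 values of 6.71 in C26 FoxP1-shRNA, 6.20 in C26 control and 9.40 in Sham. Dcn had 10.51, 10.37 and 10.87 in the same order, so that the lower sum was not that of Dcn alone. For 8 smooth muscle and pericyte markers the sums were 2051 in C26 FoxP1-shRNA, 1725 in C26 control and 2434 in Sham, and 6 were lower in C26 control than in Sham, none past 2-fold. The 10 muscle fibre markers summed to 32088 in C26 FoxP1-shRNA, 29065 in C26 control and 37769 in Sham, and all 10 were higher in C26 FoxP1-shRNA than in C26 control. The sums of these 3 lists had the order of the 8 genes, and their part in those values was not tested. Of 8 measured adipocyte markers, Adipoq, Lep and Plin1 lay below the array median on all 3 arrays, and the median log2 difference of C26 control minus Sham was 0.048. The summed linear level of the 8 was 1413 in C26 FoxP1-shRNA, 1852 in C26 control and 1196 in Sham, and followed Plin4, a lipid droplet protein that muscle fibres also express, with log2 values of 9.06 in C26 FoxP1-shRNA, 9.63 in C26 control and 7.45 in Sham. Of 8 macrophage and neutrophil markers, C26 control had 4 at or above 2 times Sham and 2 at or below 0.5 times, with sums of 360 in C26 FoxP1-shRNA, 781 in C26 control and 414 in Sham. Of the 10 muscle fibre markers, 9 were lower in C26 control than in Sham and 1, Pvalb, was past 2-fold, at 3.26-fold below Sham. The part of these lists in the values of Cav3 and Dmpk was not tested.

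**Figure D4:**
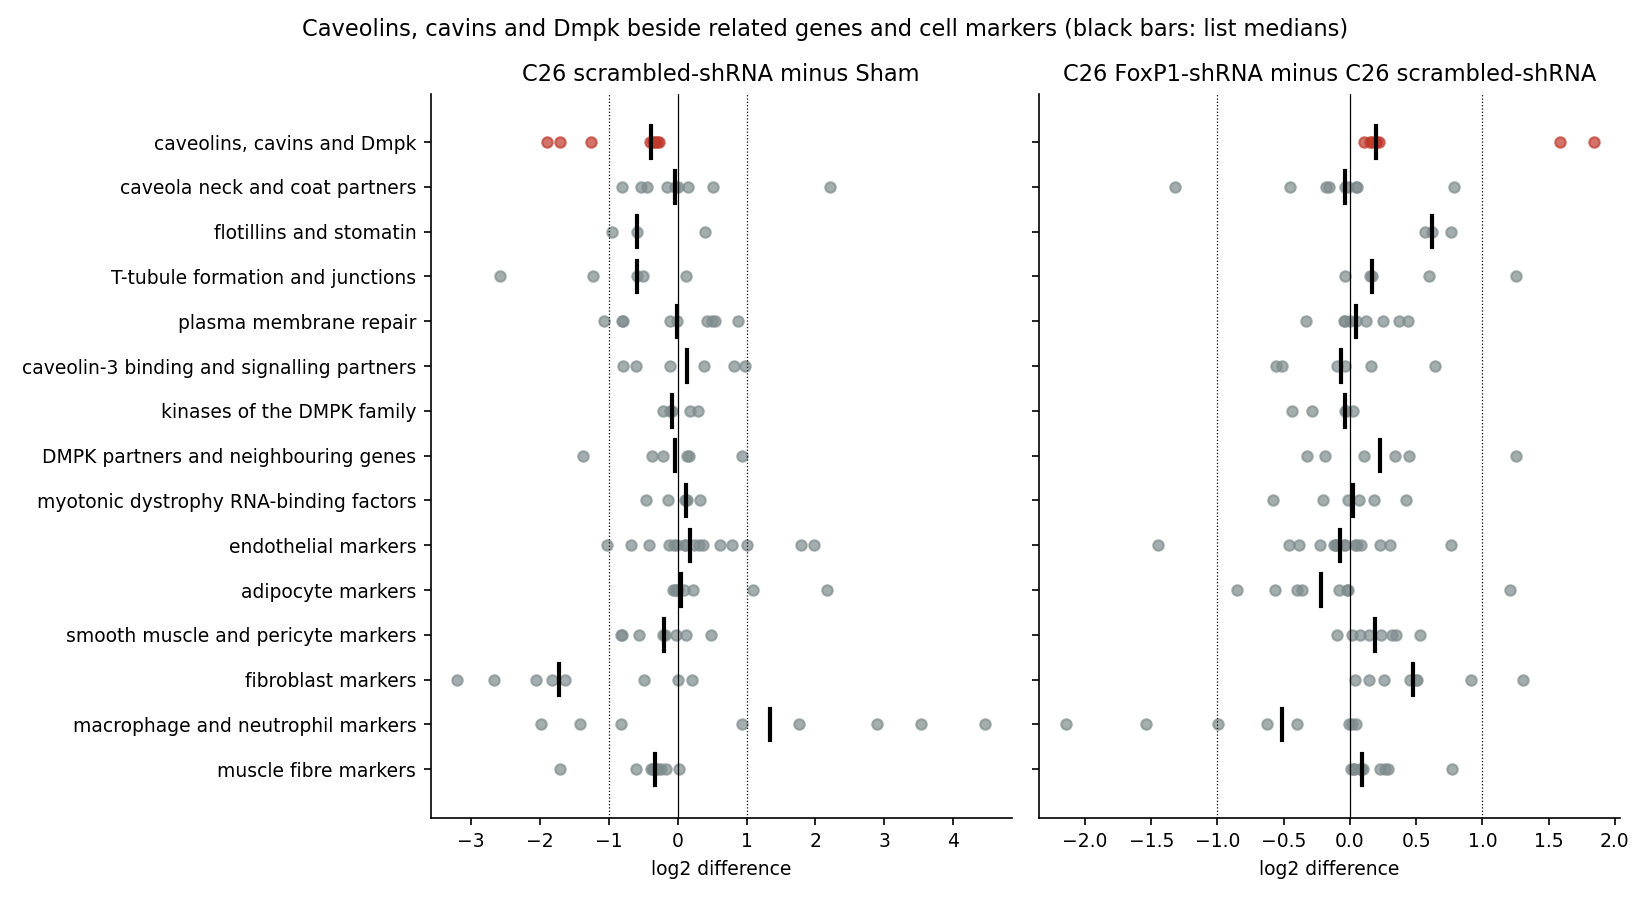
Log2 difference (horizontal axes) of every measured gene of each list in C26 scrambled-shRNA (C26 control) minus Sham (left) and C26 FoxP1-shRNA minus C26 scrambled-shRNA (right); points are genes, black bars are list medians and dotted lines mark 2-fold. Cav3 and Dmpk stood at 1.59 and 1.84 in the right panel, where the median of the 8 genes was 0.20 and that of the muscle fibre markers 0.090. The muscle fibre markers lie near the top of the array range, where a difference can be understated.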

How the data were processed

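RNA pooled from the tibialis anterior of 3 mice per group was hybridized to Mouse Gene 2.0 ST arrays, 1 array for each of 3 groups. The deposited values are log2 expression values, for which the authors ran Robust Multiarray Average (submitters' processing notes: affy 1.36.1, R 2.15.1) with the Brainarray Entrez gene mapping 17.0.0. Its quantile normalization makes the distributions of the arrays alike, so that a change common to most genes would not be seen. The genome build, and whether these arrays were normalized with others, is not given in the sources used here. The platform annotation named 23185 of 25206 genes by 1 symbol and left 2021 unnamed here.

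Differences and folds were computed in Python 3.11.15 (numpy 2.4.6, pandas 2.3.3) with no filter on dim genes. The counting code was run on simulated arrays with known changes, which checks the code and says nothing of the spread between pools. With 1 array per group no test was run, and precision is limited by the number of arrays. The 8 genes and all lists were chosen with earlier results of these data known. The rule for named genes took the 8 genes, Foxp1, up to 4 genes of each list by size of difference, and the 3 genes nearest to Cav3 and to Dmpk with a symbol and above the median of at least 1 array. Outside it fall Adipoq and Plin1, named as defining markers, Dcn, named by its level, and Ssu2 and Oxtr, named by position. So do Smpd1, Met and Stat3, flanking genes named by size of difference. Promoter sequences are from RefSeq (GRCm38.p6), which matched 7 of the 8 genes. Alternatives were centring on array medians or on 9 of 14 listed reference genes, quantile and cyclic loess normalization (limma 3.58.1, R 4.3.3), fold sizes of 1.5 and 3, a filter on dim genes, named genes only, the mean, and the list without Cav3 and Dmpk.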

Additional observations from a re-analysis of the deposited data

How the results depend on the processing

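No paired analysis was possible because each group is 1 array, and for the same reason no replicate could be left out. In C26 control against Sham and in C26 FoxP1-shRNA against C26 control, all 8 genes kept their direction and their side of 2-fold under the 4 other scalings. These scalings moved the median of all genes by at most 0.16 and 0.076, too little to take Cav3 or Dmpk across 2-fold. In C26 FoxP1-shRNA against Sham, the median of the 8 genes turned to 0.062 with the arrays centred on reference genes. The count of 1 gene past 2-fold in that comparison (Cavin2) became 0 with that centring, with each array centred on its median and at a 3-fold size. The share of all genes past the fold moved with its size and with the filter on dim genes. In C26 control against Sham it was 20.6% at 1.5-fold, 2.67% at 3-fold and 13.3% at 2-fold among genes above the median of at least 1 of the 2 arrays. The corresponding shares were 10.4%, 0.611% and 4.17% for C26 FoxP1-shRNA against C26 control, and 12.2%, 1.10% and 6.24% for C26 FoxP1-shRNA against Sham.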
